A study of Mus musculus with 6 samples.

Results

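The genes described here are 9 genes of MHC class I antigen presentation, taken by symbol from a table of 16171 genes: H2-K1, H2-D1, H2-T23, B2m, Tap1, Tap2, Tapbp, Nlrc5 and Erap1. All 9 were present in the table and all 9 passed the filter on low counts. They were measured by RNA-seq in Raw264.7 cells, a mouse macrophage line of wild-type genotype, on titanium with one of a pair of surfaces. The control surface, TH, carried titanate nanowires from alkaline heat treatment, and the other, THCaP, carried a biomimetic coating of calcium phosphate nanowires. Each surface had 3 libraries. Every culture of both groups attached for 12 h, was given 1 µg/mL LPS (bacterial lipopolysaccharide) for 2 h and was then kept for 1 d, so no library shows these genes without LPS. The comparison asks how these LPS-treated macrophages differ between the surfaces. One cell line stands for macrophages here. Nothing in the labels tells if the 3 libraries came from separate cultures, so p-values measure only the spread between these samples, which may be technical.

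MHC class I molecules show peptides from inside the cell to CD8 T cells. The proteasome cuts proteins into peptides, the transporter made of Tap1 and Tap2 carries these into the endoplasmic reticulum, the peptidase Erap1 trims them, and the chaperone tapasin (Tapbp) helps to load them onto a heavy chain (H2-K1, H2-D1) paired with β2-microglobulin (B2m). H2-T23 encodes Qa-1, a non-classical heavy chain read by receptors of natural killer cells. Interferon and NF-κB signals raise many of these genes in macrophages, and Nlrc5 is the transactivator that acts on class I promoters through a conserved module that includes the X2 and Y boxes.

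The 250 bases before the start of H2-K1, H2-D1, H2-T23, B2m and Tap1 are shown because these 5 genes had the lowest adjusted p-values among the 9 and because interferon, NF-κB and Nlrc5 are known to act on class I genes there. Capitals mark matches, on either strand, to the interferon-stimulated response element (GAAA, any 2 bases, GAAA) or a shorter form of it (GAA, any 2 bases, GAAA), the κB site (GGG, any 2 bases, TT, any base, CC), the core of the X2 box (TGACG) and the Y box (CCAAT). The shorter interferon form was added after the H2-K1 sequence was seen.
H2-K1: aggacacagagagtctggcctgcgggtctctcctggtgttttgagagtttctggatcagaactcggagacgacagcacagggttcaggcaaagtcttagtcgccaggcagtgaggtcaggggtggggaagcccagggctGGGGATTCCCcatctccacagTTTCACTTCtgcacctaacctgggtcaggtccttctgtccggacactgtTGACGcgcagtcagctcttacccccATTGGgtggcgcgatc
H2-D1: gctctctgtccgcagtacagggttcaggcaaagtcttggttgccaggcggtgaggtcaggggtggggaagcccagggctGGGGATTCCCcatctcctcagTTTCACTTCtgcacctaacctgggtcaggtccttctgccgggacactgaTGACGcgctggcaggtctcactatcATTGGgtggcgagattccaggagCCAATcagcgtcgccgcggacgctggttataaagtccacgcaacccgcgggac
H2-T23: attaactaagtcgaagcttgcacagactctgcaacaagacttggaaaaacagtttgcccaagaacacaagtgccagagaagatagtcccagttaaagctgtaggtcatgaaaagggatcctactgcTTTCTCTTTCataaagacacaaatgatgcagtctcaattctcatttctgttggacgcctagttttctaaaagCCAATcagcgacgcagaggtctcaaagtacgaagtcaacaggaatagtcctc
B2m: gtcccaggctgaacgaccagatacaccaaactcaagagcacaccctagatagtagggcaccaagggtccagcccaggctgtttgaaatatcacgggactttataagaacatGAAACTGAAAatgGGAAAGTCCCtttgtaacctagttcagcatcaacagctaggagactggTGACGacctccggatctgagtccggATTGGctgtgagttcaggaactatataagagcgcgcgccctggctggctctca
Tap1: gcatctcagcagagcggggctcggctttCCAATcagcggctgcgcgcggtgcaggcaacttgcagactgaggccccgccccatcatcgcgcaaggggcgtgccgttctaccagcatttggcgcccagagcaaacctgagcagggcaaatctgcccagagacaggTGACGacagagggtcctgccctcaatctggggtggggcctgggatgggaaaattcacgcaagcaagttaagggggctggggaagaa
The sequences are those of RefSeq on GRCm38.p6, written 5′ to 3′ along the gene (H2-K1 chr17:34000348-34000597, minus strand, H2-D1 chr17:35262844-35263093, plus strand, H2-T23 chr17:36032702-36032951, minus strand, B2m chr2:122147437-122147686, plus strand, Tap1 chr17:34187306-34187555, plus strand). For H2-K1, which has 2 entries, the one farther upstream was used. Gene spans given below are from GENCODE, whose starts differ from those of RefSeq for some genes. The windows of H2-D1 and Tapbp lie inside their GENCODE spans.

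A window was found for 7 of the 9 genes, Tap2 and Nlrc5 being unmatched. The B2m window held the full interferon element, a κB match, an X2 core and a Y box. H2-K1 and H2-D1 shared a κB match, the shorter interferon element, an X2 core and a Y box with the same spacing, and their windows were 87.4% identical over 190 aligned bases. In all, 3 of 7 windows held a κB match, against 4.11% of 32851 windows of the same length, and 4 of 7 held the X2 core, against 17.8%. The Y box stood in 6 of 7, against 33.8%, and the full interferon element in 2 of 7 (B2m and H2-T23), against 2.98%. The shorter one stood in the 2 classical heavy chain genes, against 6.31%. As it was added after the H2-K1 sequence was seen, and the H2-D1 window is much alike, that count cannot show an excess. The other motifs were chosen because the signals behind them are known to act on class I genes. The H2-K1 and H2-D1 windows are also not separate cases, so those counts are a description and cannot show an excess either. The window of Erap1 held no match before its RefSeq start, but a full interferon element ran across that start, from base −4 to base 6 after it. These are matches of letters in the C57BL/6J genome and were not tested as sites. Raw264.7 came from a BALB/c mouse, and whether its windows carry the same bases was not tested.

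**Figure D1:**
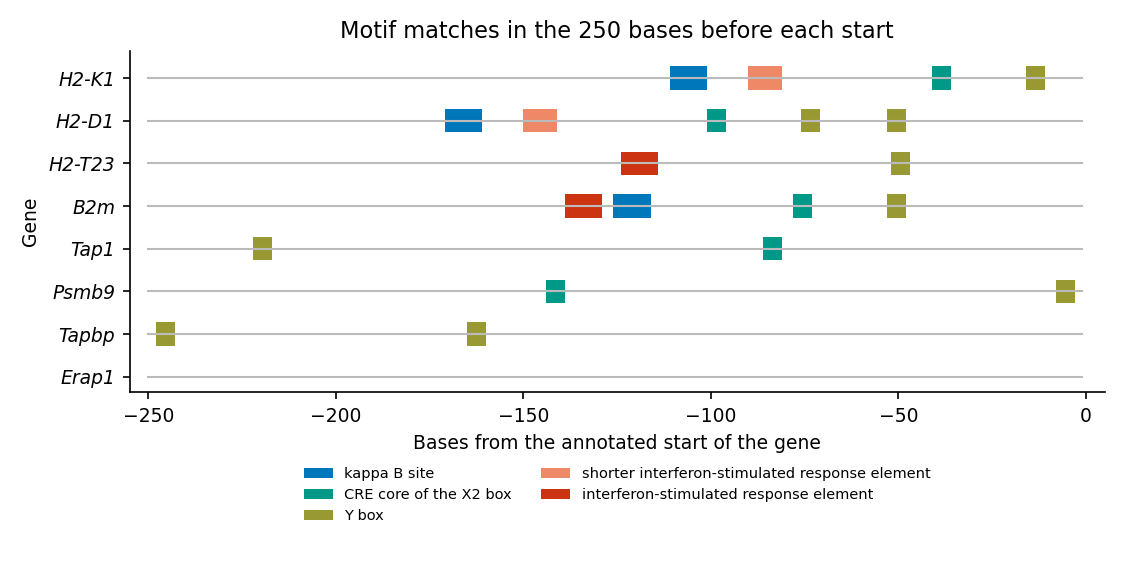
Positions of motif matches in the 250 bases before the RefSeq start of 7 class I genes and Psmb9 (rows), with distance from that start in bases on the x axis and 1 colour per motif. H2-K1 and H2-D1 show the same order of a κB match, the shorter interferon element, the X2 core and a Y box, and the Erap1 row is empty.

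Library totals ran from 28000099 to 30317108 counts, and 11480 genes were tested with edgeR (quasi-likelihood F test, Benjamini-Hochberg adjusted p under 0.05 for a call). The 9 macrophage markers were all detected and summed to 2444 to 2950 on TH and 2634 to 2930 on THCaP in CPM, which are counts per 1000000 counts of a library scaled with edgeR's TMM factors. Single macrophage markers differed in sign: Lyz2 rose (0.63, edgeR adjusted p = 0.0223), while Csf1r (0.31, 0.0504), Cd14 (−0.35, 0.0501) and Cd68 (−0.23, 0.0643) did not overlap between surfaces but were not called. Markers of T cells, neutrophils and fibroblasts summed to at most 0.350 CPM in any library, with S100a8 and Lum at 0 counts in all 6. The 4 B cell markers summed to 1.27 to 1.47 CPM on TH and 0.784 to 1.17 CPM on THCaP. Marker sums for dendritic cells were 8.29 to 8.85 CPM on TH and 4.25 to 6.20 CPM on THCaP, mostly Zbtb46 (669 and 388 counts), while Flt3 had 1 count on each surface. Endothelial markers, mostly Pecam1, summed to 4.55 to 5.65 and 2.27 to 4.06 CPM. Of these last 3 lists, 2 B cell, 2 dendritic cell and 1 endothelial marker passed the filter on low counts. Of those, 1 dendritic cell marker was called lower and none higher, where 12.0% of all tested genes were called lower and 11.6% higher. What such cells or markers contribute to the results below was not tested.

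Per length of gene, B2m was the most abundant of the 9 by far. Its FPKM (fragments per kilobase of gene and 1000000 counts, as deposited, without TMM factors) was 1633 ± 53.8 on TH and 1223 ± 98.8 on THCaP (mean ± SD, n = 3 each, as for all such values). On TH the order below it was H2-D1 (413 ± 22.8), H2-K1 (112 ± 7.20), Tapbp (99.7 ± 6.68), H2-T23 (65.2 ± 9.46), Tap2 (38.6 ± 2.01), Tap1 (33.2 ± 1.33), Erap1 (14.8 ± 0.715) and Nlrc5 (7.81 ± 0.898 FPKM). The libraries of H2-K1 and Tapbp overlapped on TH, and no other neighbours in that order did. On THCaP Tapbp and H2-K1 overlapped again and stood in the other order, and H2-T23, at 37.3 ± 0.759 FPKM, lay within the range of Tap2. The transactivator Nlrc5 was the least abundant on both surfaces.

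**Figure D2:**
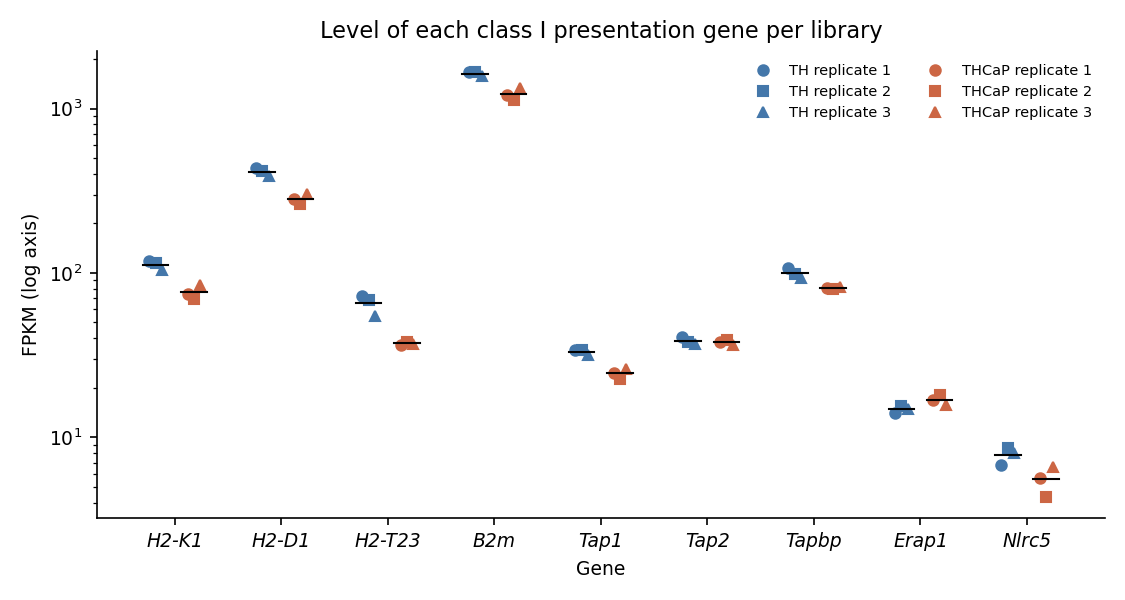
FPKM on a log axis for each of the 9 genes (x axis) in each library (points; blue TH, orange THCaP; marker shape gives the replicate), with the mean of each surface as a bar. The B2m points lie at 1132 FPKM or higher and those of Nlrc5 at 8.58 FPKM or lower, and on this scale the TH and THCaP points mix for Tap2 alone of the 9.

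On the calcium phosphate coating the heavy chains, their light chain, the transporter subunit Tap1, tapasin and Nlrc5 fell, while the transporter subunit Tap2 and the peptidase Erap1 did not pass the test. Of the 9 genes, 7 were called lower and 0 higher, where 12.0% of all tested genes were called lower, 11.6% higher and 23.6% either way. In TMM-scaled CPM the same 7 had no overlap between the libraries of the surfaces, where 21.3% of all tested genes lay lower without overlap, 22.1% higher and 43.4% either way. Their changes were moderate, from 1.28-fold for Tapbp to 1.81-fold for H2-T23, and the median log2 fold change of the 9 was −0.49, against 0.0064 for all tested genes. Scaling by library totals alone moved the split over all genes from 1333 higher and 1376 lower to 1904 and 1063, and still called 7 of the 9 lower. In bulk RNA, fewer cells with a transcript and less of it per cell cannot be told apart.

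The classical heavy chains fell together. H2-K1 stood at 118, 115 and 104 FPKM on TH and at 74.7, 69.8 and 84.4 FPKM on THCaP, each given in the order of the replicate numbers, as below. All THCaP libraries lay below all TH libraries, with THCaP replicate 3 the nearest to TH. In TMM-scaled CPM it went from 244 ± 14.1 to 160 ± 15.3, a log2 fold change of −0.61 with an SE of 0.09 (edgeR adjusted p = 0.00458). H2-D1 was at 434, 418 and 389 FPKM on TH and 281, 261 and 302 FPKM on THCaP. The surfaces were again apart, and the change was of the same size (−0.61, SE 0.08, edgeR adjusted p = 0.00347). The genes resemble each other: 8.79% of the 50-base stretches of the longest coding H2-K1 transcript and 14.3% of those of H2-D1 occur unchanged in transcripts of other genes, so some reads may be shared or lost. Raw264.7 came from a BALB/c mouse, whose class I alleles are of the d haplotype, whereas mm10 is the genome of C57BL/6J, of the b haplotype, and what this does to the level of heavy chain genes was not tested. H2-K1 lies on GRCm38 chromosome 17 at 33996017 to 34000347 and H2-D1 at 35262730 to 35267499, both protein coding.

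H2-T23 fell the most of the 9. Its levels were 72.4, 68.7 and 54.5 FPKM on TH and 36.7, 38.1 and 37.1 FPKM on THCaP. The spread was wide on TH, where replicate 3 was low, and narrow on THCaP. The fall was 1.81-fold, from 87.4 ± 12.1 to 48.2 ± 1.11 CPM (−0.86 on the log2 scale, SE 0.11, edgeR adjusted p = 0.00274). H2-T23 is also the member with the most sequence in common with other genes (29.8% of its 50-base stretches, mainly with the pseudogene H2-T-ps and H2-Q1), and lies on chromosome 17 at 36029773 to 36032855.

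B2m, the light chain that every classical heavy chain needs to reach the surface, was at 1669, 1660 and 1572 FPKM on TH and at 1209, 1132 and 1328 FPKM on THCaP. The lowest TH library was still above the highest THCaP library. The fall was 1.39-fold (log2 fold change −0.47, SE 0.08, edgeR adjusted p = 0.00720). None of its 50-base stretches occurs in another gene's transcripts. The gene spans 122147686 to 122153083 on chromosome 2, outside the MHC, and Patl2, which overlaps it on the opposite strand, had only 120 counts in all 6 libraries.

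Of the subunits of the peptide transporter, which work as a heterodimer, Tap1 fell and Tap2 was not called. Tap1 was at 34.0, 33.8 and 31.6 FPKM on TH and at 24.5, 22.8 and 26.2 FPKM on THCaP. The surfaces did not overlap, and the fall was 1.40-fold (−0.49, SE 0.08, edgeR adjusted p = 0.00600). Tap2 was at 40.8, 38.1 and 36.9 FPKM on TH and at 38.1, 39.0 and 36.3 FPKM on THCaP. Its libraries overlapped, and its log2 fold change was −0.08 (SE 0.08, 95% confidence interval −0.25 to 0.09, edgeR adjusted p = 0.447), an interval that does not reach the fitted change of Tap1. Within a library, the ratio of Tap1 to Tap2 FPKM was 0.834, 0.888 and 0.858 on TH and 0.643, 0.585 and 0.721 on THCaP. All 3 THCaP ratios were below all TH ratios (log2 difference −0.41; exact two-sided permutation p = 0.1, the smallest that 3 against 3 libraries can give, and 0.157 adjusted over 11 ratios). Tap1 lies at 34187553 to 34197225 and Tap2 at 34203527 to 34216321 on chromosome 17, with the immunoproteasome gene Psmb8 between them.

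Tapbp, the chaperone that bridges the transporter and the heavy chain, fell the least of the 7. It was at 107, 98.9 and 93.5 FPKM on TH and at 80.7, 80.2 and 82.0 FPKM on THCaP. The THCaP libraries lay close together, below every TH library (−0.35, SE 0.08, edgeR adjusted p = 0.0141). The call was lost without TH replicate 2 (0.0564) or THCaP replicate 1 (0.0764), with log2 fold changes of −0.36 and −0.35. Of the 50-base stretches of Tapbp, 21.0% occur in transcripts of other genes. Tapbp spans 33915899 to 33929292 on chromosome 17. Zbtb22 overlaps it on the same strand and was not called (edgeR adjusted p = 0.220).

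Erap1, which trims peptides in the endoplasmic reticulum, was the only one of the 9 with a positive log2 fold change. Its levels were 14.0, 15.4 and 14.9 FPKM on TH and 16.96, 18.1 and 15.8 FPKM on THCaP, apart on this scale. In TMM-scaled CPM the surfaces overlapped, at 80.8 to 89.2 on TH and 87.9 to 102 on THCaP, and the difference was not called (0.15, SE 0.08, 95% confidence interval −0.04 to 0.33, edgeR adjusted p = 0.223). Part of the gene, on chromosome 13 at 74639568 to 74693201, overlaps Cast on the opposite strand, and 14.0% of its 50-base stretches occur in Cast transcripts. Cast was not called either (edgeR adjusted p = 0.586).

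The transactivator Nlrc5 fell, with the largest SE of the 9. It was at 6.83, 8.58 and 8.03 FPKM on TH and at 5.69, 4.36 and 6.59 FPKM on THCaP. The highest THCaP library, replicate 3, lay just under the lowest TH library, replicate 1. The change was 1.46-fold (−0.55, SE 0.15, edgeR adjusted p = 0.0278). The call was lost when replicate 2 or 3 of TH or replicate 1 of THCaP was omitted (adjusted p 0.103, 0.0921 and 0.0774), and with limma on log2(FPKM + 1) with no filter (0.108). Nlrc5 spans 94434356 to 94527272 on chromosome 8.

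**Figure D3:**
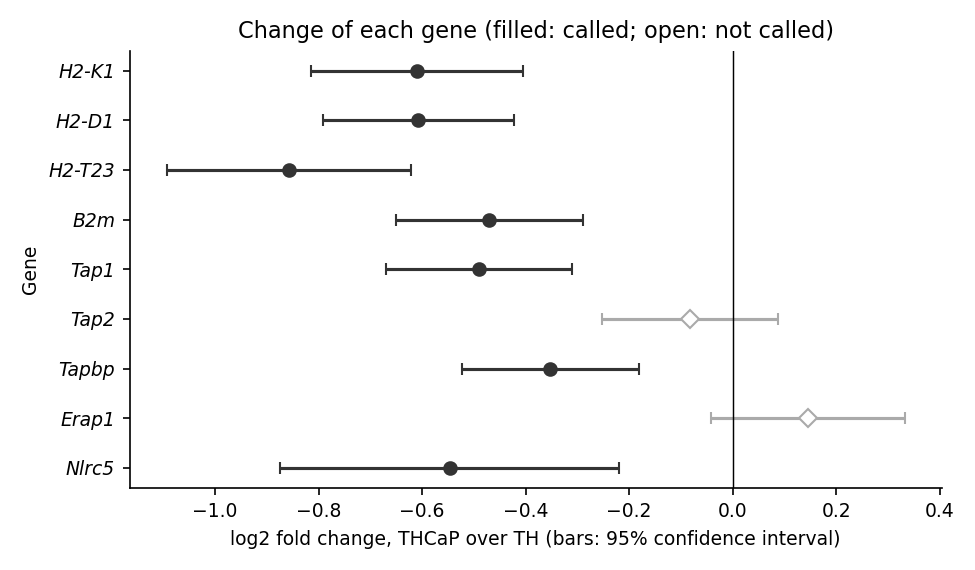
Log2 fold change of THCaP over TH (x axis) with its 95% confidence interval for each of the 9 genes (y axis). The 7 filled points, from −0.86 for H2-T23 to −0.35 for Tapbp, have intervals below 0, and the open points of Tap2 and Erap1 have intervals that include it.

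Within a surface, the order of the libraries was much the same for these 7 genes. TH replicate 1 was the highest TH library for 6 of them and TH replicate 3 the lowest for 6. THCaP replicate 3 was the highest THCaP library for 6 and THCaP replicate 2 the lowest for 6. Nlrc5 was the exception on TH, where replicate 1 was its lowest library. Tap2, which was not called, had the same highest and lowest libraries as the 6 on TH but not on THCaP. Whether the order is particular to these genes was not tested. H2-T23 was the exception on THCaP, with all 3 libraries within 47.3 to 49.5 CPM. The mean of the 7, relative to the mean of all 6 libraries, was 0.32, 0.32 and 0.21 on the log2 CPM scale across TH and −0.29, −0.38 and −0.18 across THCaP.

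**Figure D4:**
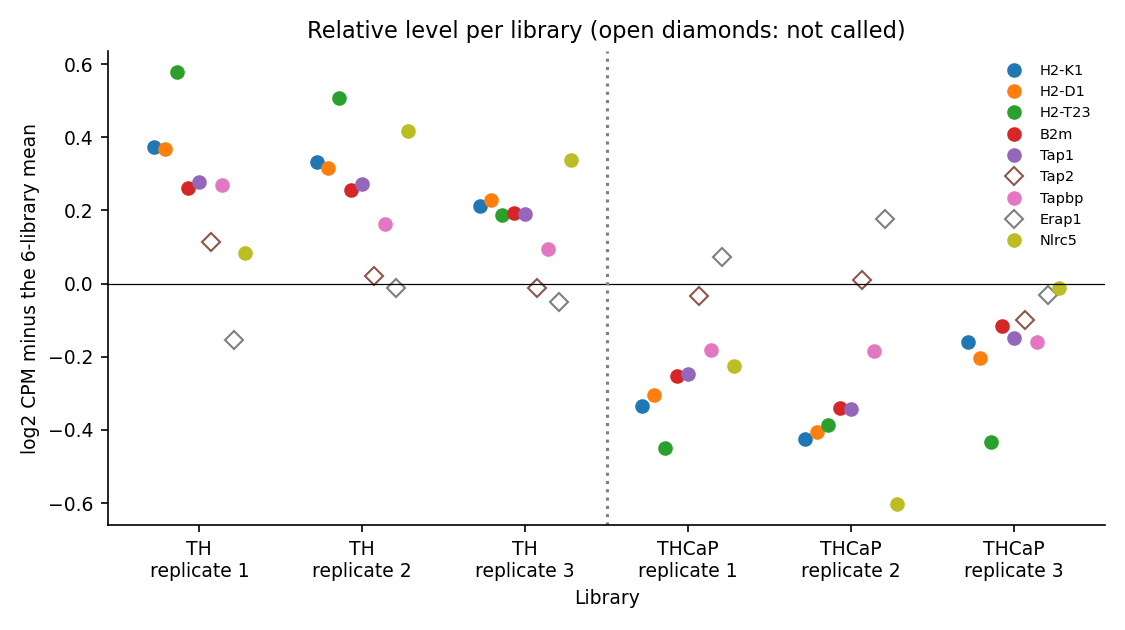
Log2 CPM minus the mean of the 6 libraries (y axis) for each gene (colours) in each library (x axis), with open diamonds for Tap2 and Erap1. The 7 filled genes lie above 0 in every TH library and below 0 in every THCaP library, where 6 of the 7 are nearest to 0 in replicate 3.

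Ratios inside a library, which do not depend on scaling between libraries, showed how evenly the genes moved. H2-K1 to B2m was 0.0708, 0.0691 and 0.0664 in FPKM on TH and 0.0618, 0.0617 and 0.0635 on THCaP, so the heavy chain was lower relative to its light chain in all 3 THCaP libraries (log2 difference −0.14). The difference was also −0.14 for H2-D1 and −0.38 for H2-T23, each without overlap (exact two-sided permutation p = 0.1 for each of the 3). Tap1 to B2m, added after the values were seen, was 0.0204, 0.0204 and 0.0201 on TH and 0.0203, 0.0201 and 0.0197 on THCaP. These overlapped, with a log2 difference of −0.02 (exact two-sided permutation p = 0.3). Erap1 to B2m, also added, was 0.00840, 0.00931 and 0.00946 on TH and 0.0140, 0.0160 and 0.0119 on THCaP, without overlap (log2 difference 0.62; exact two-sided permutation p = 0.1). The ratio of Tapbp to B2m, the last of those added among the members, differed by 0.12 with overlap (exact two-sided permutation p = 0.2).

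Other class I heavy chains fell as well. Transcripts of H2-Q1, H2-Q6 and H2-Q7 share 50-base stretches with H2-D1, and those of H2-Q1 also with H2-K1 and H2-T23. Some reads of the members may thus be counted in other heavy chain genes, so these falls may not be separate. This was not tested. Of 23 class I and class I-like genes listed, 13 were tested, 9 fell and 1 rose, where 12.0% of all tested genes were called lower and 11.6% higher. The median log2 fold change of the 13 was −0.69. All 9 tested genes with an H2 symbol had negative values, and 7 of them fell. H2-T24 went from 33.5 ± 3.48 to 19.0 ± 1.90 CPM (−0.81, SE 0.11), H2-M3, which presents formylated peptides, from 48.4 ± 0.905 to 29.3 ± 3.49 CPM (−0.72, SE 0.10), and H2-Q4 from 149 ± 4.82 to 92.6 ± 12.9 CPM (−0.69, SE 0.10; edgeR adjusted p = 0.00365, 0.00357 and 0.00467). H2-Q2 (−1.23) and the protein C receptor gene Procr (−0.78) fell too. Hfe, a class I-like gene of iron homeostasis that also pairs with B2m, was the 1 that rose (0.83, SE 0.23, edgeR adjusted p = 0.0312). H2-Q7 (−1.06, edgeR adjusted p = 0.117), H2-Q10 (−0.91, 0.0674) and Fcgrt, the neonatal Fc receptor (0.26, 0.315), were not called. The 9 calls became 5 when any 1 TH library or replicate 1 of THCaP was omitted, 6 without replicate 2 of THCaP, and 6 with scaling by library totals. H2-Q2 lost its call without any TH library or THCaP replicate 1 (adjusted p 0.0636 to 0.142, and 0.0670 with a replicate block), Procr without any TH library or THCaP replicates 1 or 2 (0.0543 to 0.174), and with all libraries under library totals, limma-voom or log2 FPKM (0.0509 to 0.124), and Hfe without TH replicates 2 or 3 or THCaP replicates 1 or 2 (0.0739 to 0.112).

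Of 10 proteasome genes, which supply the peptides, 0 were called lower and 1 higher, with a median of 0.12. With 12.0% of all tested genes called lower and 11.6% higher, these counts are near the background. None of the 5 interferon-inducible subunits in the list (Psmb8, Psmb9, Psmb10, Psme1 and Psme2) was called, with log2 fold changes from −0.11 to 0.36. Psmb8 went from 160 ± 13.7 to 164 ± 16.9 CPM, with a log2 fold change of 0.04 (95% confidence interval −0.19 to 0.26, edgeR adjusted p = 0.806) that took the other sign without TH replicate 3 or THCaP replicate 2. Psmb9 was at 41.0 ± 1.33 and 38.6 ± 2.26 CPM (−0.09, interval −0.27 to 0.10, edgeR adjusted p = 0.457). Psmb10 stood at 0.36 (edgeR adjusted p = 0.196), which became 0.51 (0.0441) without THCaP replicate 3. Psme3, the activator subunit of nuclear proteasomes, was the 1 that rose (0.42, SE 0.10, edgeR adjusted p = 0.0204), a call lost when replicate 2 or 3 of TH or replicate 1 of THCaP was omitted (0.0659 to 0.0781), while 4 genes of the list were called higher without THCaP replicate 3.

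Psmb9 and Tap1 are transcribed in opposite directions from a region they share, and their annotated spans overlap by 212 bases. The ratio of Tap1 to Psmb9 FPKM, chosen after the values were seen, was 0.901, 0.957 and 0.887 on TH and 0.721, 0.606 and 0.758 on THCaP. Tap1 was thus lower relative to its neighbour in every THCaP library (log2 difference −0.40; exact two-sided permutation p = 0.1). Psmb8 relative to Psmb5, the constitutive subunit it replaces, was 2.53, 2.74 and 2.60 on TH and 2.13, 1.94 and 2.17 on THCaP (log2 difference −0.33; exact two-sided permutation p = 0.1). The log2 fold change of Psmb5, named after its value was seen, was 0.38 (edgeR adjusted p = 0.0564, not called), beside 0.04 for Psmb8. The corresponding ratios of Psmb9 to Psmb6 (−0.17) and of Psmb10 to Psmb7 (0.21) overlapped between the surfaces (exact two-sided permutation p = 0.3 for each). No ratio fell under 0.157 after adjustment over all 11.

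Of 13 tested partners in peptide loading and trimming, 2 fell and 1 rose, with a median of 0.057. That is close to the 23.6% of all tested genes called either way. The loading chaperones calreticulin (Calr, −0.10, SE 0.14), calnexin (Canx, 0.03, SE 0.09) and the disulfide isomerase Pdia3 (0.23, SE 0.16) were not called (edgeR adjusted p = 0.611, 0.839 and 0.322). Hspa5, the general chaperone BiP of the endoplasmic reticulum, fell from 3058 ± 403 to 1901 ± 133 CPM (−0.69, SE 0.10, edgeR adjusted p = 0.00473). The cytosolic peptidase gene Thop1 rose (0.59, SE 0.15, edgeR adjusted p = 0.0260) and the aminopeptidase gene Npepps fell (−0.35, SE 0.11, edgeR adjusted p = 0.0497). Thop1 lost its call without any TH library or THCaP replicate 1 (0.0684 to 0.0867) and Npepps without TH replicates 2 or 3 or THCaP replicates 1 or 2 (0.106 to 0.162). Npepps also lost it with scaling by library totals (0.0772) and on log2 FPKM (0.0791 to 0.156). Pdia3 was called higher without THCaP replicate 3 (0.41, 0.0125), when 3 genes of the list were called higher. Omitting any other library left 1 to 3 lower and 0 or 1 higher.

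Among transcription factors that act on class I promoters, 6 of 23 fell and 1 rose, with a median of −0.11. Of all tested genes, 12.0% were called lower, 11.6% higher and 23.6% either way. The list was chosen with earlier results of these data known, so these counts cannot show a lean of such factors to lower calls. Irf7, an interferon regulatory factor, went from 72.8 ± 12.2 to 25.5 ± 2.93 CPM (−1.51, SE 0.13, edgeR adjusted p = 0.000735) and Irf9, the DNA-binding part of the type I interferon complex, from 68.8 ± 5.40 to 45.4 ± 2.71 CPM (−0.60, SE 0.09, edgeR adjusted p = 0.00454). The NF-κB subunits Relb (−0.84, SE 0.12), Nfkb2 (−0.49, SE 0.07) and Rel (−0.46, SE 0.11) fell. Nfkb1 (0.09, SE 0.08, edgeR adjusted p = 0.438) was not called. Nfyc, a subunit of the Y box factor, rose (0.63, SE 0.13, edgeR adjusted p = 0.0126), while Nfya was not called (−0.11, SE 0.07, edgeR adjusted p = 0.278). Irf1, named after its value was seen, stood at −0.28 (edgeR adjusted p = 0.0664, but 0.0313 without THCaP replicate 3 and 0.0477 with DESeq2), and Stat3 at −0.25 (0.0599, but 0.0338 with DESeq2, 0.0453 without TH replicate 1 and 0.0248 without THCaP replicate 3). Rel lost its call without TH replicates 2 or 3 or THCaP replicate 1 (0.0714 to 0.0818) and Nfyc without TH replicates 2 or 3 (0.0567 and 0.0577). The 6 calls became 4 when replicate 2 or 3 of TH or replicate 1 of THCaP was omitted, and 9 without replicate 3 of THCaP.

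Upstream of these factors, 5 of 10 tested genes for interferon receptors, kinases and brakes fell and 0 rose, beside 12.0% and 11.6% of all tested genes, with a median of −0.37. No ligand was tested: Ifnb1 did not pass the filter on low counts and no row matched Ifng. Usp18, an interferon-induced brake on the type I receptor, fell most (−1.24, SE 0.11, edgeR adjusted p = 0.000735). The receptor subunits Ifnar1 (−0.57, SE 0.11) and Ifngr2 (−0.37, SE 0.07) and the kinases Tyk2 (−0.46, SE 0.11) and Jak2 (−0.38, SE 0.10) fell. Ifnar2, the other type I subunit, stood at 101 ± 3.16 and 103 ± 3.35 CPM (0.02, interval −0.14 to 0.18, edgeR adjusted p = 0.856), with the other sign without TH replicate 2 or THCaP replicate 3. Jak1 was not called (−0.11, edgeR adjusted p = 0.296). Tyk2 and Jak2 lost their calls without TH replicates 2 or 3 or THCaP replicate 1 (0.0752 to 0.0834 and 0.0718 to 0.105), and Ifngr2 without THCaP replicate 1 (0.0547). Jak2 also lost it on log2 FPKM (0.0523 to 0.0949). Those omissions left 3, 3 and 2 calls in the list.

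MHC class II presentation shows peptides from outside the cell to CD4 T cells. Of its 8 tested genes, 2 fell and 0 rose, where 12.0% of all tested genes were called lower and 11.6% higher. H2-Eb1 was low on both surfaces and fell from 4.79 ± 0.651 to 1.27 ± 0.485 CPM (−1.92, SE 0.28, edgeR adjusted p = 0.00431). Cd74, the invariant chain, fell from 1107 ± 74.3 to 758 ± 89.5 CPM (−0.55, SE 0.10, edgeR adjusted p = 0.00795). The lysosomal reductase gene Ifi30 (0.18, edgeR adjusted p = 0.181) and the protease gene Ctss (−0.24, edgeR adjusted p = 0.0541) were not called. Ctss was called lower with DESeq2 (0.0219) and with a filter at 5 CPM (0.0443).

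**Figure D5:**
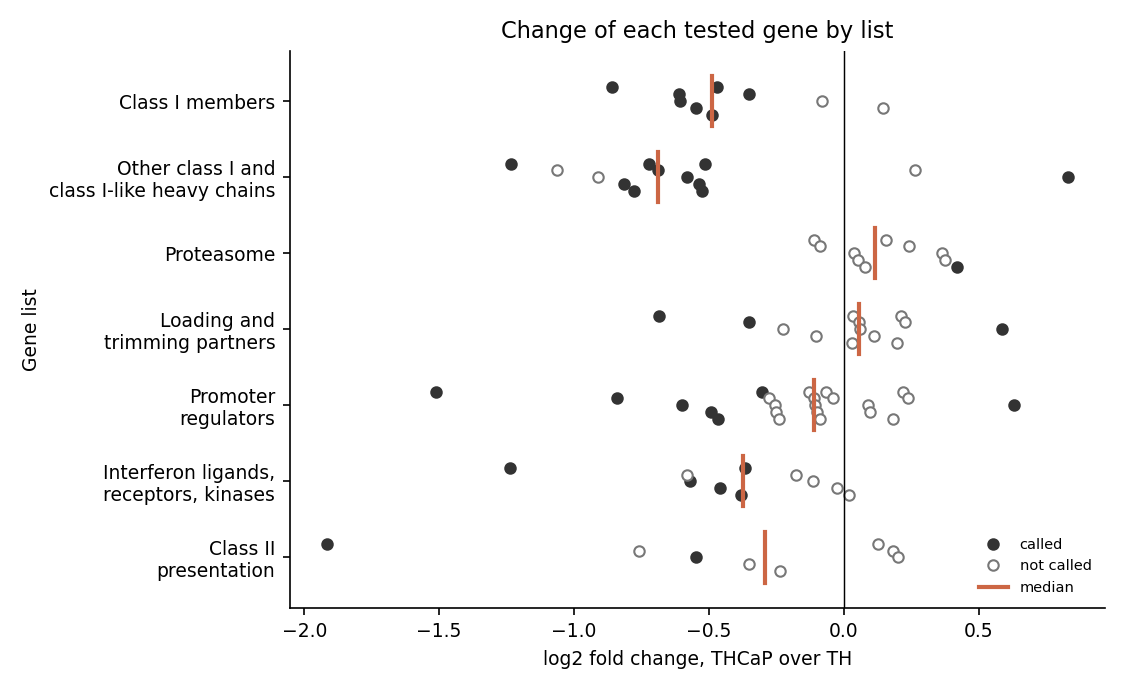
Log2 fold change of THCaP over TH (x axis) for every tested gene of 7 lists (y axis); filled points were called, open points were not, and the orange bar is the list's median. The other heavy chains have a median of −0.69, the proteasome genes lie between −0.11 and 0.42, and the promoter regulators spread from −1.51 to 0.63.

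Leaving aside the members and other H2 genes, the 6 genes whose pattern over the 6 libraries was most like the mean scaled profile of the 9 were, in order, Bst2, Ifi27l2a, Ptpn12, Cdkn1a, Irf9 and Scyl3, among 8890 candidates at 10 CPM or more on average. Pearson correlations with the profile were 0.99 for each, a description over 6 libraries that fall into 2 groups. Bst2, the antiviral tetherin, went from 188 ± 17.6 to 109 ± 3.19 CPM (−0.79, SE 0.09) and Ifi27l2a, an interferon-induced gene, from 107 ± 11.5 to 56.8 ± 4.16 CPM (−0.92, SE 0.10). The cell cycle inhibitor Cdkn1a fell as well (−0.45, SE 0.07). Not all were changed to a like degree: Scyl3 differed by only −0.06 (SE 0.07, edgeR adjusted p = 0.516), and the phosphatase gene Ptpn12 by −0.23 (edgeR adjusted p = 0.0422), a call lost without TH replicates 2 or 3 or THCaP replicates 1 or 2 (0.0796 to 0.168), with library totals (0.0921), with no filter (0.0683) and on log2 FPKM (0.0960 to 0.116).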

How the data were processed

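The tools listed in the submitters' processing notes are HTSeq, HISAT2 and fastp, with build mm10. Versions, annotation and strand setting: not given in the sources used here. Overlapping and antisense genes therefore cannot be separated. The deposited counts are whole reads per gene symbol, not normalised. The deposited FPKM were computed by the authors and scale by library total: counts and FPKM gave a gene length whole within 0.01 bases for 100% of 11923 genes. Counts were tested with edgeR 4.0.16 (R 4.3.3): low counts were removed by filterByExpr (minimum count 10, total 15), with TMM factors, robust quasi-likelihood F test over all 6 libraries without covariates, adjusted over 11480 genes. The standard error is the absolute log2 fold change over the square root of F. Groups and replicate numbers came from the labels.

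The 9 members and all lists were chosen with earlier results of these data known. Named genes were all members and, per list, up to 6 called genes by size of change and up to 3 uncalled genes by abundance, with the 6 most alike in pattern. The values of 1 listed gene are not reported here. Libraries of a surface differed beyond sampling noise (chi-square per degree of freedom 3.84 to 48.4). Alternatives used DESeq2 1.42.0, limma 3.58.1 (voom, or log2 of FPKM plus 1 or 0.1), other factors and filters, a block and omitted libraries. Positions are from GENCODE on GRCm38, the assembly behind mm10. The fit was tested on simulated data. Where no read was seen, up to 3 counts (0.108 CPM or less) remain possible, for counting error only.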

Additional observations from a re-analysis of the deposited data

How the results depend on the processing

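Of the 9 class I genes, 7 were called lower in every alternative that kept all libraries except limma on log2(FPKM + 1) with no filter, which called 6, and 0 were called higher in any. Omitting 1 library left 5 to 7. H2-K1, H2-D1, H2-T23, B2m and Tap1 kept their call, and Tap2 and Erap1 stayed uncalled, in all 16 alternatives. The log2 fold change ranged from −0.69 to −0.55 for H2-K1, from −0.97 to −0.78 for H2-T23, from −0.53 to −0.42 for B2m and from −0.11 to −0.03 for Tap2. Over all genes, omitting 1 library gave 465 to 2020 lower and 291 to 2145 higher calls, and log2(FPKM + 1) without a filter gave 528 and 766. Under that last setting Nlrc5, H2-Q2, Hfe, Procr, Npepps, Thop1, Rel, Jak2, Tyk2 and Ptpn12 lost their calls (adjusted p 0.0774 to 0.156). With the replicate number as a block there were 1457 lower and 1424 higher calls and again 7 members lower. It ended the call of H2-Q2 (adjusted p = 0.067) and Ptpn12 (0.106) and of no other named gene. Deviations of same-numbered libraries correlated at −0.02, −0.07 and 0.06, and not every library correlated best with its own number. With 3 libraries per surface, such values cannot tell if same-numbered libraries were handled together, and the labels do not say. For the ratios, pairing by number (replicate block) leaves the difference as it is by construction (−0.41 for Tap1 to Tap2), and no exact sign-flip p over 3 pairs can be under 0.25. No ratio changed sign when 1 library was omitted. Omitting 1 library moved the log2 fold change of Psmb8 from −0.039 to 0.11, Psme1 from −0.046 to 0.13, Calr from −0.27 to 0.038, Canx from −0.049 to 0.12 and Ifnar2 from −0.0067 to 0.038. The cause was not tested.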
